A study of Mus musculus with 9 samples.

Results

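Fras1, Frem1, Frem2, Frem3 and Grip1, the genes of the Fraser complex, were examined in whole testes of 3-week-old C57BL/6 mice carrying a CRISPR-Cas9 knock-in of the R264W missense change in Piwil4. The 5 genes were taken from the 22337 genes of the deposited table by their symbols, and each symbol was found in 1 row. The 9 testes comprised 3 wild-type (WT-WT), 3 Piwil4 WT/R264W (WT-KI) and 3 Piwil4 R264W/R264W (KI-KI) samples, and the genotypes were taken from the labels because the table holds no base calls. The WT-KI and KI-KI mice carry the allele from the germline, the WT-WT mice do not carry it, and no Cre driver or other transgene is described. The genes were selected on a value of these same data, the higher Fras1 level in KI-KI testes, so that value is given as a description without a test. The other 4 genes were included as partners of Fras1.

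FRAS1, FREM1 and FREM2 are very large extracellular matrix proteins that assemble into a complex beneath the basement membranes of embryonic epithelia, where they help to hold epithelium and underlying tissue together. FREM3 is a related protein, and GRIP1 is a PDZ-domain adaptor inside the cell that carries FRAS1 and FREM2 to the basal surface of epithelial cells. Loss of FRAS1, FREM2 or GRIP1 causes Fraser syndrome, with fused eyelids, fused digits and absent kidneys. In the testis, the seminiferous tubules are enclosed by a basement membrane laid down by Sertoli and peritubular myoid cells, and at 3 weeks of age the first wave of spermatogenesis is reaching its first round spermatids.

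The total estimated count ranged from 20.2 to 23.0 M in WT-WT, from 18.0 to 22.2 M in WT-KI and from 18.4 to 24.3 M in KI-KI testes. Markers of Sertoli, Leydig and germ cells were present in every testis, and the summed level of each of 14 cell marker lists overlapped between KI-KI and both other genotypes. The testes differed in how far the first wave had advanced: a stage score, the log2 CPM (counts per M of the library total after TMM scaling) averaged over 14 round spermatid genes, ran from 1.48 to 6.16 in WT-WT, from 0.92 to 5.15 in WT-KI and from 2.43 to 5.96 in KI-KI. KI-KI replicate 1 stood apart in holding 883 counts of Crisp1 and 177 of Adam7, both made in the epididymis, while KI-KI replicates 2 and 3 held 0 counts of either and the other 6 testes held 0 to 109 counts of Crisp1. The defining epididymal genes Lcn8 and Lcn9 were at 0 in all 9 testes. These are bulk samples, in which fewer cells of a type and less RNA per cell cannot be told apart, and p-values measure the spread between these testes, which the labels do not tie to single mice.

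To compare the levels of the 5 genes with each other, FPKM, which is scaled for transcript length, was used. Grip1 had the highest level, with a median of 5.18 FPKM and a range of 2.62 to 18.65 over the 9 testes. Fras1 followed at a median of 0.94 FPKM, between 0.71 and 1.65, and these ranges did not overlap. Frem2 and Frem1 lay lower, at medians of 0.15 and 0.14 FPKM with the same range of 0.08 to 0.20, so the order of these neighbours was within their spread. Frem3 was the lowest, at a median of 0.04 FPKM, and its range of 0.01 to 0.14 overlapped those of Frem1 and Frem2. The median of Fras1 was thus 6.71 times that of Frem1, 6.27 times that of Frem2 and 23.5 times that of Frem3. Of all genes in the table, 42.3% had a lower median FPKM than Fras1 and 59.2% had a lower one than Grip1.

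Fras1 (ENSMUSG00000034687), which encodes a matrix protein anchored in the membrane of epithelial cells, had 15.04, 13.2 and 11.3 CPM in WT-WT testes, 15.2, 14.1 and 15.6 CPM in WT-KI testes and 23.7, 26.5 and 21.3 CPM in KI-KI testes. The lowest KI-KI testis lay above the highest testis of both other genotypes, whereas WT-WT and WT-KI overlapped. These values rested on 234 to 339 counts per testis in WT-WT and WT-KI and on 373 to 651 in KI-KI. The means were 13.2 ± 1.88 (SD, n = 3) in WT-WT, 14.9 ± 0.770 (SD, n = 3) in WT-KI and 23.9 ± 2.58 (SD, n = 3) CPM in KI-KI. Fras1 was therefore 1.81-fold higher in KI-KI than in WT-WT testes, a log2 fold change of 0.85 with a standard error of 0.15, and 1.60-fold higher than in WT-KI testes, a log2 fold change of 0.68 with a standard error of 0.12. Both differences describe the value on which the genes were chosen, and they share the KI-KI testes. Groups that did not overlap were found for 5.68% of the 15543 genes tested between KI-KI and WT-WT and for 7.15% of the 15463 tested between KI-KI and WT-KI.

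**Figure D1:**
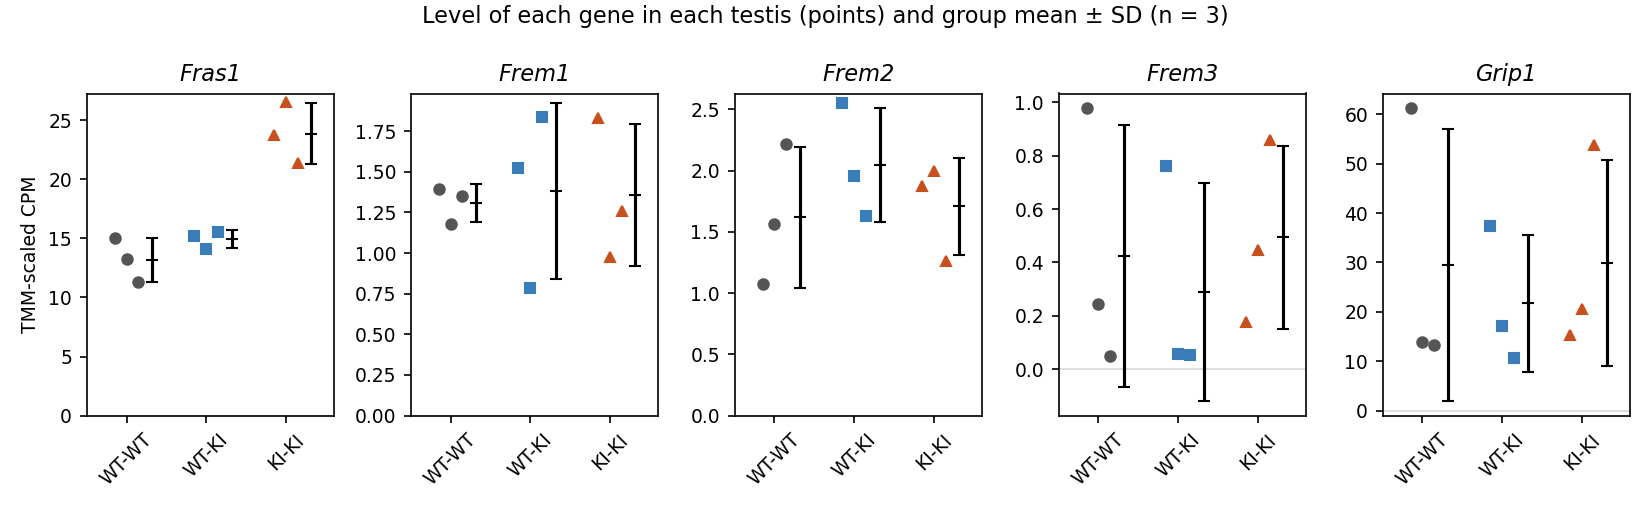
TMM-scaled CPM (y axes, each with its own range) of the 5 genes in the 9 testes, by genotype (x axes), with the group mean and SD (bars, n = 3) beside the points. The KI-KI points of Fras1 sit between 21.3 and 26.5 CPM, above all 6 other testes, and the groups overlap for the other 4 genes.

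The comparison of the heterozygous with the wild-type testes was not used to choose the genes. Fras1 differed there by a log2 fold change of 0.18 with a 95% interval of -0.19 to 0.54, and the difference did not pass the threshold (edgeR, adjusted p = 0.9998). No gene of the 15413 tested passed an adjusted p of 0.05 in this comparison (0%) with edgeR, DESeq2 or limma, and 1.11% had an unadjusted p under 0.05.

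Without KI-KI replicate 1, the testis with the highest counts of Crisp1 and Adam7, the log2 fold change of Fras1 was 0.86 against WT-WT and 0.68 against WT-KI. In a fit of all 9 testes with the stage score it was 0.85 and 0.66, against 0.86 and 0.68 in that fit without the score. Some lists of other cell types also lay higher in KI-KI. Against WT-WT and WT-KI their median log2 fold changes were 0.50 and 0.30 for 4 mesothelial and 1.08 and 1.28 for 3 tested adipose markers. They were 0.31 and 0.51 for Leydig cell, 0.19 and 0.20 for macrophage and 0.31 and 0.54 for 4 tested duct markers. Positive medians in both were also found for interstitial fibroblast (0.10 and 0.21), endothelial (0.13 and 0.03), spermatocyte (0.03 and 0.07) and round spermatid markers (0.05 and 0.65). Medians of Sertoli cell, spermatogonial and skeletal muscle markers were negative in both, and those of peritubular myoid markers were 0.02 and -0.01. Against WT-WT, 1 mesothelial and 1 Sertoli cell gene had an unadjusted p under 0.05, both higher in KI-KI (edgeR). Against WT-KI, 1 spermatogonial gene did, lower in KI-KI. The shares over all genes tested were 1.26% and 2.22%. No gene of any kind passed an adjusted p of 0.05 with edgeR in these comparisons. The summed level of 4 mesothelial markers was 8.07 to 12.0 CPM in KI-KI against 4.44 to 9.12 in WT-WT and 6.81 to 9.41 in WT-KI, and that of 6 Leydig cell markers was 231 to 385 CPM against 158 to 360 and 151 to 276. The summed level of 4 adipose tissue markers was 4.47 to 16.2 CPM in KI-KI against 3.87 to 7.64 in WT-WT and 3.99 to 7.54 in WT-KI. For 5 macrophage markers it was 59.3 to 71.8 CPM in KI-KI against 51.9 to 60.4 in WT-WT and 51.3 to 68.3 in WT-KI. For 5 markers of duct epithelium it was 36.3 to 49.1 CPM in KI-KI against 34.1 to 41.6 in WT-WT and 39.9 to 42.7 in WT-KI. KI-KI replicate 1 held the most counts of the duct markers Krt18 (68, against 0 to 15 in the other testes) and Cdh1 (86, against 19 to 41). The ranges overlapped, and the part of these cells in the Fras1 value was not tested.

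Frem1 and Frem2, the matrix proteins that assemble with Fras1, passed no test in any comparison. Frem1 (ENSMUSG00000059049) had 30, 24 and 28 counts in WT-WT, 34, 14 and 35 in WT-KI and 41, 24 and 22 in KI-KI testes, or means of 1.31 ± 0.116, 1.38 ± 0.543 and 1.36 ± 0.436 CPM (SD, n = 3 each). Frem2 (ENSMUSG00000037016) had 23, 32 and 46 counts in WT-WT, 57, 35 and 31 in WT-KI and 42, 49 and 22 in KI-KI testes, or means of 1.62 ± 0.575, 2.05 ± 0.469 and 1.71 ± 0.395 CPM (SD, n = 3 each). The genotypes overlapped for both genes in every comparison. Between KI-KI and WT-WT the log2 fold change was 0.05 for Frem1, with a 95% interval of -0.68 to 0.78, and 0.08 for Frem2, with an interval of -0.74 to 0.91 (edgeR, adjusted p = 0.9998 for both). Against WT-KI it was -0.03 for Frem1 (interval -0.98 to 0.92, adjusted p = 0.992) and -0.25 for Frem2 (interval -0.93 to 0.43, adjusted p = 0.948). At these low counts the intervals for Frem1 include a change of the size seen for Fras1 in the KI-KI to WT-KI comparison, and the upper limit for Frem2 in that comparison lies below it. Between KI-KI and WT-WT the reverse held, with the Fras1 value of 0.85 above the upper limit of Frem1 and within that of Frem2. Whether the change of Fras1 differed from those of Frem1 and Frem2 was not tested. Between WT-KI and WT-WT the values were 0.08 for Frem1 and 0.34 for Frem2, with the edgeR adjusted p at 0.9998 for both.

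The balance among the matrix genes, given as Fras1 FPKM divided by the summed FPKM of Frem1 and Frem2, was 3.91, 3.04 and 2.15 in WT-WT, 2.69, 3.74 and 3.03 in WT-KI and 4.26, 6.11 and 5.90 in KI-KI testes. All KI-KI ratios lay above those of the other 6 testes. As the ratio contains the Fras1 value that chose the genes, it was not tested.

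Frem3 (ENSMUSG00000042353) was close to the limit of detection, with 21, 5 and 1 counts in WT-WT, 17, 1 and 1 in WT-KI and 4, 11 and 15 in KI-KI testes. Each genotype held at least 1 testis with 15 counts or more and at least 1 with 4 or fewer. Too few testes held counts for the filter on low values, so Frem3 was not among the genes tested between genotypes, and its log2 fold changes come from a fit without the filter. They were 0.19 between KI-KI and WT-WT (interval -2.12 to 2.51), 0.68 between KI-KI and WT-KI (interval -1.71 to 3.06) and -0.49 between WT-KI and WT-WT (interval -3.37 to 2.39). In 3 testes the gene had 1 count, below the floor of 3 counts, so these values are set loosely.

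Grip1 (ENSMUSG00000034813), the adaptor, varied widely between testes of the same genotype. It had 61.2, 13.9 and 13.3 CPM in WT-WT, 37.3, 17.1 and 10.7 CPM in WT-KI and 15.2, 20.7 and 53.7 CPM in KI-KI testes, a span of 5.71-fold. In each genotype 1 testis was far above the other two, and the groups overlapped. The means were 29.5 ± 27.5, 21.7 ± 13.9 and 29.9 ± 20.8 CPM (SD, n = 3 each). The log2 fold change was 0.02 between KI-KI and WT-WT (interval -1.77 to 1.80, edgeR adjusted p = 0.9998), 0.46 between KI-KI and WT-KI (interval -0.98 to 1.89, adjusted p = 0.948) and -0.45 between WT-KI and WT-WT (interval -2.17 to 1.28, adjusted p = 0.9998). Between KI-KI and WT-KI the 14 round spermatid genes also lay higher, by a median log2 fold change of 0.65 with none passing the test. In a fit of all 9 testes the Grip1 value of this comparison was 0.46 without the stage score, with a standard error of 0.74. With the score it was 0.03, with a standard error of 0.16.

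**Figure D2:**
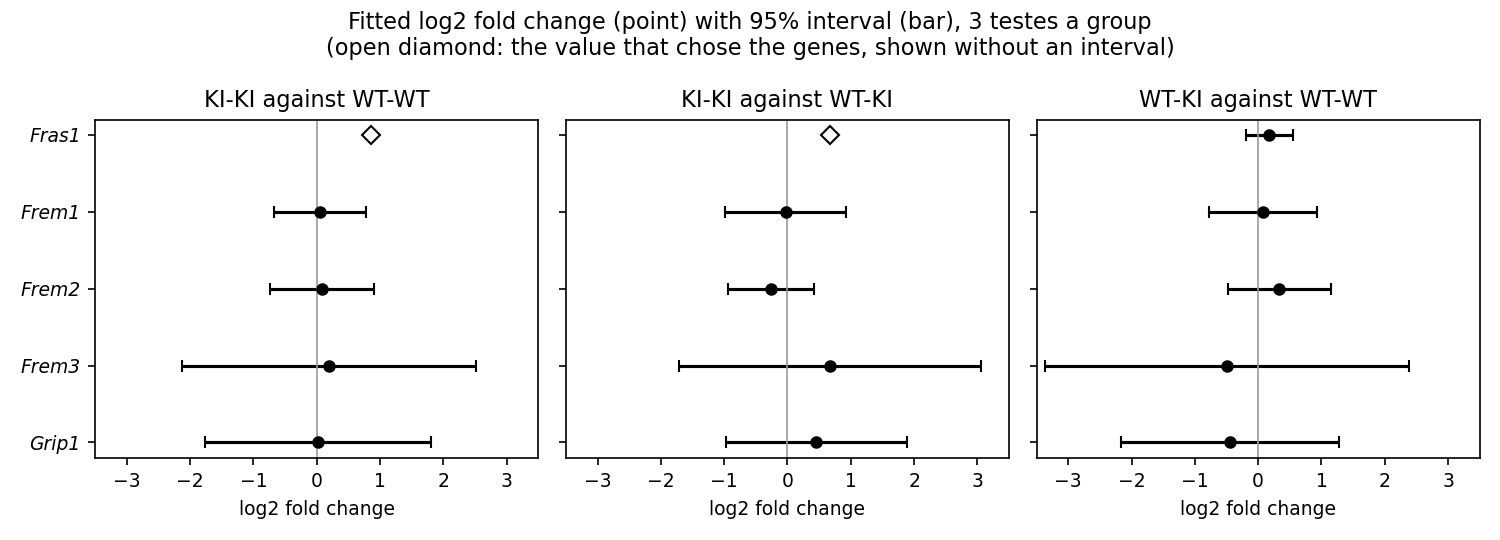
Fitted log2 fold change (x axes) of each gene (y axis) in the 3 comparisons, with 95% intervals as bars; the open diamonds mark Fras1 in both KI-KI comparisons, at 0.85 and 0.68, where its value chose the genes. The intervals of the 4 partners include 0 in each comparison and are widest for Frem3 and Grip1.

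No gene passed an adjusted p of 0.05 with edgeR between KI-KI and WT-WT (0% of those tested) or between KI-KI and WT-KI (0%), so the partners were read against a background without calls. An unadjusted p under 0.05 was found for 1.26% and 2.22% of genes in these comparisons, and for none of Frem1, Frem2 and Grip1. DESeq2 gave 1 and 5 genes with an adjusted p under 0.05 and limma gave 0, and none of the 4 partners was among them.

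The wider matrix around the complex was described with 45 genes in 6 lists, of which all 45 were tested in each comparison. In none of the 3 comparisons did any of the 45 have an unadjusted p under 0.05. The 10 partners of the Fraser complex comprised the ligand nephronectin (Npnt) and its receptor integrin alpha 8 beta 1 (Itga8, Itgb1), the matrix proteins Vwa2, Hmcn1 and Fbln1, the proprotein convertases Furin and Pcsk5, the Grip1 paralog Grip2 and the Grip1-binding proteoglycan Cspg4. Between KI-KI and WT-WT 5 of them lay higher and 5 lower, from -0.42 for Npnt to 0.40 for Pcsk5, with a median log2 fold change of 0.00 against -0.01 over all genes tested. Against WT-KI 3 lay higher and 7 lower, with a median of -0.12 against 0.01 over all genes.

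Among the structural lists, 10 of 11 laminin chains lay lower in KI-KI than in WT-WT, by a median of -0.11, and 7 of 11 lay lower than in WT-KI, by a median of -0.15. The 6 type IV collagen chains had medians of 0.02 and 0.16 in the same comparisons, the 6 linkers and proteoglycans (nidogens, perlecan, agrin and collagens XV and XVIII) 0.00 and -0.06, the 8 receptors (integrin chains, dystroglycan and Bcam) 0.07 and 0.05, and the 4 genes that anchor epithelium -0.09 and 0.12. No single gene among them passed the test. Groups did not overlap for 0%, 2.22% and 4.44% of the 45 genes between KI-KI and WT-WT, KI-KI and WT-KI, and WT-KI and WT-WT, where the background was 5.68%, 7.15% and 5.31%.

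**Figure D3:**
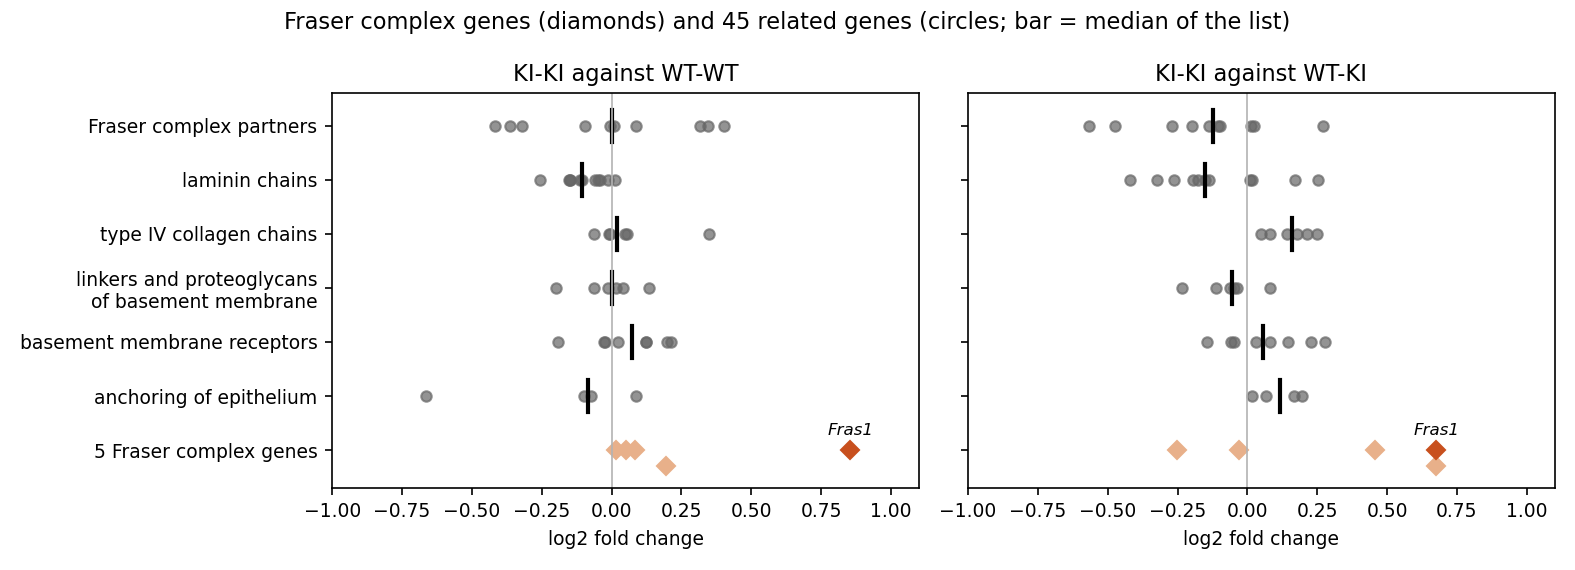
Log2 fold change (x axes) of 45 genes of the basement membrane and its receptors, 1 circle a gene, by list (y axis), with the list median as a black bar; the bottom row holds the Fraser complex genes as diamonds, with Fras1 in dark orange and Frem3 set slightly lower. The list medians run from -0.15 to 0.16, and Fras1 lies at 0.85 and 0.68.

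Neighbouring genes were compared to see whether the Fras1 level was shared by the genes nearest to it. Genes farther along the chromosome were not examined for this. The 3 nearest genes of the table on one side were Mrpl1, Cnot6l and Cxcl13, and the 3 on the other were Anxa3, Bmp2k and Paqr3. Cxcl13 had at most 2 counts in any testis and was not tested. The log2 fold changes of the other 5 between KI-KI and WT-WT were -0.08 for Mrpl1, -0.09 for Cnot6l, 0.19 for Anxa3, -0.08 for Bmp2k and -0.08 for Paqr3, with standard errors of 0.13 to 0.19, and none passed the test (edgeR, adjusted p = 0.9998). Between KI-KI and WT-KI they ran from -0.19 for Bmp2k to 0.02 for Mrpl1, and none passed the test.

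The genes whose levels most resembled that of Fras1 over the 9 testes were sought among 14265 genes with at least 10 counts in every testis, by Pearson r of log2 CPM. They were BC029722 (r = 0.95), Afm, which encodes the plasma protein afamin (r = 0.95), A1cf, an RNA-binding cofactor of apolipoprotein B mRNA editing (r = 0.92), Lepr, the leptin receptor (r = 0.92), and Irf7, an interferon-regulated transcription factor (r = 0.90). Afm had 0.771 to 2.23 CPM in WT-WT, 1.47 to 1.90 in WT-KI and 3.76 to 5.49 in KI-KI testes, and Lepr had 3.82 to 4.24, 3.69 to 5.78 and 6.98 to 9.16 CPM. For these 2 genes and also for BC029722, A1cf and Irf7, as for Fras1, every KI-KI testis lay above the other 6. These correlations rest on the same KI-KI difference that chose Fras1, and with 9 testes and this many genes they are a description only. The genes most like Frem1 were Trim63 (r = 0.94) and Pkn2 (r = 0.93), followed by Nemf, Osbpl2 and Vhl, and those most like Frem2 were Ldb3 (r = 0.98) and Slc30a6 (r = 0.97), followed by Efnb3, Creb3 and Ct55. None of the genes nearest to Frem1 or Frem2 was among those nearest to Fras1. Unrelated lists of 5 among 14265 genes would seldom share a gene, so no difference is drawn from this.

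The second axis examined was the stage of the first wave. A slope on the stage score was fitted across all 9 testes with genotype as a term, so that it was estimated within genotypes. The score was measured in the same libraries and the labels give no stage. Of 16052 genes tested with edgeR, 24.8% had an adjusted p under 0.05, with 2751 rising and 1230 falling as the score rose, and all 14 round spermatid genes that define the score were among those rising. The 3 matrix genes Fras1, Frem1 and Frem2 did not pass the test. Fras1 had a slope of 0.02 log2 units per unit of score (interval -0.05 to 0.08, adjusted p = 0.711), Frem1 a slope of -0.05 (interval -0.23 to 0.13, adjusted p = 0.663) and Frem2 a slope of -0.07 (interval -0.24 to 0.10, adjusted p = 0.520).

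Grip1 rose with stage. Ordered by the score, its level was 10.7 CPM in the least advanced testis, a WT-KI sample, then 13.3, 15.2, 13.9, 17.1, 20.7, 37.3 and 53.7, and 61.2 CPM in the most advanced, a WT-WT sample. The slope was 0.48 log2 units per unit of score (interval 0.40 to 0.56, edgeR, adjusted p = 4.31e-07), and 5.09% of all genes tested had a steeper rise. The 3 testes with the highest Grip1 were the most advanced testis of each genotype.

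Frem3 rose along the same axis, with 1, 1, 4, 5, 1, 11, 17, 15 and 21 counts in the testes ordered by the score. Its slope was 0.74 (interval 0.42 to 1.05, edgeR, adjusted p = 0.00239). Without the 2 testes farthest from the median score, WT-WT replicate 1 and WT-KI replicate 3, the slope of Frem3 was 0.80 and no longer passed the test (adjusted p = 0.153), while that of Grip1 was 0.52 (adjusted p = 0.000367). Over the 9 testes Frem3 and Grip1 had a Pearson r of 0.89, and Fras1 had one of 0.21 with Grip1 and 0.05 with Frem1. The genes most like Grip1 were Cnbd2 (r = 0.998), Spaca9 (r = 0.997), Lemd1 (r = 0.997), 2810408A11Rik (r = 0.996) and Clmn (r = 0.995), and those most like Frem3 were Prox1 (r = 0.96), Gm9495, Abhd2, Rapgef5 and Pla2g4d (r = 0.95 for each). Cnbd2 ran from 11.45 to 65.4 CPM and Clmn from 1.79 to 40.8 CPM, highest in the testis in which Grip1 was highest.

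**Figure D4:**
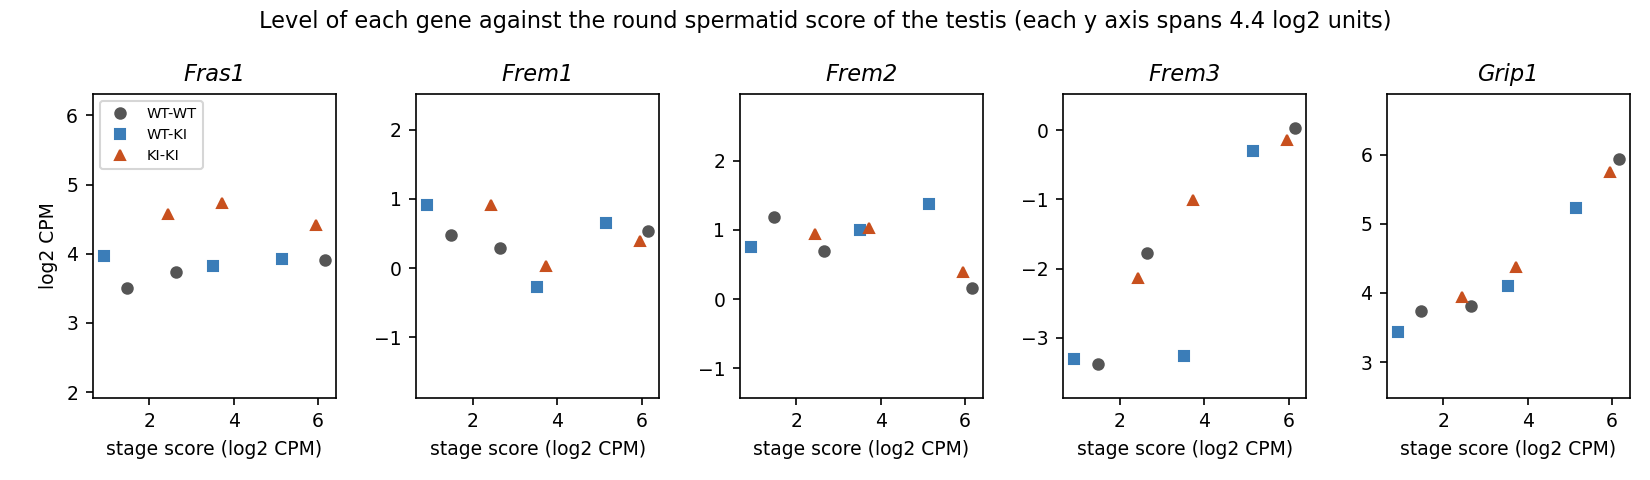
Level of each gene (y axes, log2 CPM, each spanning the same width) against the stage score of the testis (x axes, log2 CPM averaged over 14 round spermatid genes), with genotypes by colour and shape. Frem3 and Grip1 climb with the score at slopes of 0.74 and 0.48, and Fras1 has a slope of 0.02 with the KI-KI points above the others.

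Of the 45 genes of the wider matrix, 4 rose and 1 fell with stage, or 5 of 45 called where the share over all genes tested was 24.8%. They are named because they passed the test. Itga1, a collagen-binding integrin chain, had a slope of 0.25 (edgeR, adjusted p = 6.19e-06), Lamb3, a laminin chain, 0.43 (adjusted p = 0.000218), and the cytolinkers Plec and Dst had 0.15 (adjusted p = 0.000733) and 0.10 (adjusted p = 0.00217). Furin fell, with a slope of -0.09 (adjusted p = 0.0419). None of the type IV collagens or of the linkers and proteoglycans passed the test.

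Grip1 mRNA also changed in the transcript length that the deposited values imply. FPKM divides a count by transcript length and library total, so count and FPKM together give the length used for a gene in a testis. For Fras1 this length was 16212 to 16339 bases, a ratio of 1.01 between the highest and the lowest testis, beside an annotated longest transcript of 15848 bases. For Grip1, ordered by the stage score, it was 4277, 4301, 3711, 3661, 3288, 3402, 3203, 2977 and 3067 bases. The least advanced testes had the longest and the most advanced the shortest implied length, and in each genotype the testis with the highest score had the shortest.

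The ratio of the highest to the lowest Grip1 length was 1.44. Of 10460 genes with at least 100 counts and an FPKM of at least 1 in every testis, 4.89% had a ratio at least as large, and the median ratio was 1.04. Implied length and stage score had a Pearson r of -0.946 and a Spearman rho of -0.95 over the 9 testes. Without the 2 testes farthest from the median score r was -0.929 (n = 7), and within the 6 testes of lowest score it was -0.969. The relation was picked out after the lengths had been seen, so these values are a description and no p is given.

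**Figure D5:**
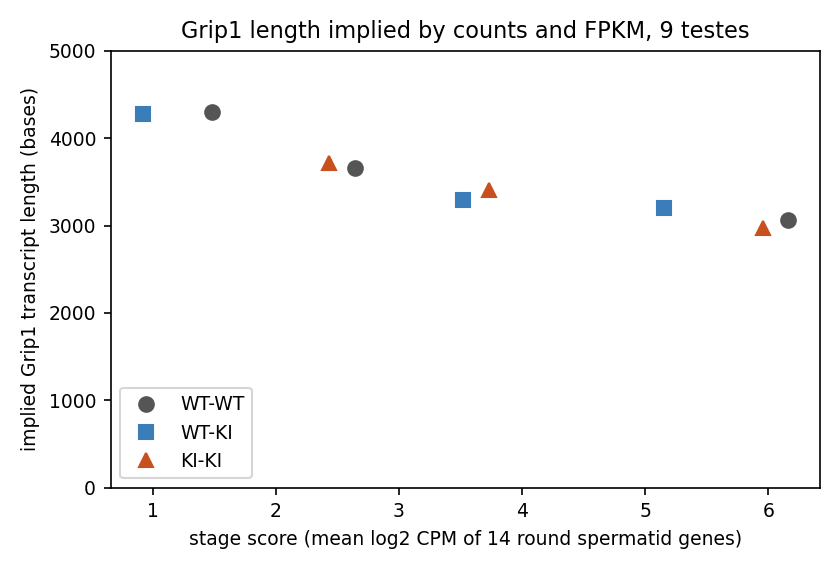
Transcript length of Grip1 in bases (y axis, from 0) implied by its count and FPKM in each of the 9 testes, against the stage score (x axis). The length falls from 4301 and 4277 bases in the least advanced testes to 2977 and 3067 in the most advanced, with the genotypes intermixed.

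The annotation gives Grip1 several starts that yield transcripts of different length. GENCODE M21, a GRCm38 annotation, was used here only for the structure of the gene. Each transcript was assigned to the nearest RefSeq start close by, so its first base can differ from that start. At or near start 1 began 3 coding transcripts of 3720 to 5343 bases. Start 2, 365355 bases downstream, had 6 of 3250 to 4996 bases, and start 3, 538888 bases downstream, had 3 of 2482 to 3608 bases. The implied lengths of the least advanced testes lie within the ranges of starts 1 and 2, and those of the most advanced testes, 2977 and 3067 bases, lie within the range of start 3 alone. The table gives 1 value per gene, so the transcripts themselves were not measured. An implied length covers all transcripts of the gene together, and a mix from several starts could give the same length. The ranges hold coding transcripts only, and of 16 annotated Grip1 transcripts 2 began near none of these starts. Which starts were used was not tested. The 250 bases before each start, and before the start of Frem3, are shown because these are the genes of the complex that rose with stage. They are the reference sequences of RefSeq for GRCm38.p6, plus strand, at chr10:119453784-119454033, chr10:119819139-119819388, chr10:119992672-119992921 and chr8:80610789-80611038, and capitals mark TGACG or its reverse complement CGTCA, the core of the cAMP response element to which the spermatid factor CREM binds.
Grip1 start 1: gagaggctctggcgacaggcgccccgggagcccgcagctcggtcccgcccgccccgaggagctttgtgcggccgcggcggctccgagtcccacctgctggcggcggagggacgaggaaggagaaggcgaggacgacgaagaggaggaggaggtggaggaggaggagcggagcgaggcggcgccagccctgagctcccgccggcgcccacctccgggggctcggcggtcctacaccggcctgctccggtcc
Grip1 start 2: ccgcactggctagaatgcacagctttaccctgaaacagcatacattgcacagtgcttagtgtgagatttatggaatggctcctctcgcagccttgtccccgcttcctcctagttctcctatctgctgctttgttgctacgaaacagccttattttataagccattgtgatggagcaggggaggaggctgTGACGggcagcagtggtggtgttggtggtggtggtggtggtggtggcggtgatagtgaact
Grip1 start 3: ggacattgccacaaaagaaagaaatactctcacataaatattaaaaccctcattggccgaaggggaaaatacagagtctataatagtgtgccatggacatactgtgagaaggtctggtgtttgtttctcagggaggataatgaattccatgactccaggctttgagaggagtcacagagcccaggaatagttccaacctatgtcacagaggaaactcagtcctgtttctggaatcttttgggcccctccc
Frem3 start: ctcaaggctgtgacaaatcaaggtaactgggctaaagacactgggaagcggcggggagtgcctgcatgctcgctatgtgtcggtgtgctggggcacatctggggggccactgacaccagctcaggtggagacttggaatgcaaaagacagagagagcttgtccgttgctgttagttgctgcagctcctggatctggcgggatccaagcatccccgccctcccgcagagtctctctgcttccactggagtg
Start 1 of Grip1 lies in GC-rich sequence (76% G and C), start 2 in sequence with 52.4% and start 3 in sequence with 44.4%. The core occurred once, 61 bases before start 2 of Grip1, and in none of the other sequences. On either strand, TGACG was found in the 250 bases before 17.8% of 32851 RefSeq starts, and the full palindrome TGACGTCA, which contains it, before 1.55% and before none of these 4. Such a match is a description of the letters in the window.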

How the data were processed

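RNA was extracted from 9 whole testes and libraries were made with an mRNA-seq kit. Strand was not stated. The authors filtered reads with fastp 0.18.0 and used StringTie 1.3.1, as the submitters' processing notes list, with mm39 as the genome build. The aligner and counter are not given in the sources used here. The authors deposited, per gene and testis, an FPKM value and an estimated count (89.2% of these were whole numbers). Estimated counts were rounded and compared between pairs of genotypes (6 testes each) with edgeR 4.0.16: filterByExpr, TMM scaling, quasi-likelihood test, two-sided, Benjamini-Hochberg over all genes tested. Slopes on the stage score used all 9 testes, with genotype as a term. CPM values are TMM-scaled over 9 testes, and log2 CPM uses a prior count of 1. The procedure was tested on simulated counts, with changes placed only in better expressed genes and the same spread set for all genes. That simulation does not cover genes as low as Frem1, Frem2 and Frem3 or, between genotypes, as variable as Grip1. Alternatives were DESeq2 1.42.0, limma 3.58.1 on log2(FPKM + 0.1) and log2(FPKM + 0.01), other filters and scaling, all 9 testes in one fit, the stage score as covariate, a replicate block and leaving out each testis. The members and gene lists were chosen with earlier results of these data known. Named were the 5 genes, genes of the 6 matrix lists with an unadjusted p under 0.05 between genotypes (none), 3 table neighbours of Fras1 on each side in the GRCm38 order, and the 5 genes nearest to each member. Others named passed the stage test or mark a list's range, and were chosen after their values were seen. Counting floors and intervals cover counting error only where counts are given, and the library totals limit the precision of genes with few counts.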

Additional observations from a re-analysis of the deposited data

How the results depend on the processing

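Under other tools, filters, scalings and covariates the Fras1 log2 fold change was 0.79 to 0.86 against WT-WT and 0.59 to 0.69 against WT-KI. It was 0.76 to 0.96 and 0.59 to 0.75 when each testis was left out. Every KI-KI testis lay above all testes of the other genotypes, so leaving out a testis could not reverse its direction. These ranges describe the value that chose the genes and add no support to it. Grip1 kept its rise with stage and its call in every alternative except the spermatocyte score, where its slope was -2.591. That score hardly varied, and under it no gene passed (0), with slopes of -0.2778 for Fras1 and -12.61 for Frem3. Frem1, Frem2 and Frem3, with 1 to 57 counts a testis, are limited by depth.

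Genes with an adjusted p under 0.05 numbered 1 (KI-KI against WT-WT) and 5 (KI-KI against WT-KI) with DESeq2, against 0 with edgeR. Genes with an unadjusted p under 0.05 between WT-KI and WT-WT numbered 111 with DESeq2 and 290 with all 9 testes in one fit, against 171. With the stage score as a covariate they numbered 549 there and 399 between KI-KI and WT-WT (196 without it), the Grip1 value between KI-KI and WT-WT was -0.1132, and Frem1 between KI-KI and WT-KI was 0.004. Without the 2 testes farthest from the median score 1006 genes followed stage, the Fras1 slope was -0.0155 and Frem3 (0.7971) no longer passed. With limma the Fras1 slope was -0.0077.

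The labels do not state whether same-numbered testes were paired, and the main fits did not pair them. Of 9 same-numbered pairs, 2 had deviations from the group means that correlated over 0.1 (range -0.757 to 0.792). Both were between WT-KI and WT-WT, at 0.70 for replicate 1 and 0.79 for replicate 3. Deviations from the mean of 3 testes depend on each other, so these values cannot decide pairing. The replicate block gave 52 genes with an unadjusted p under 0.05 between KI-KI and WT-WT and 131 between KI-KI and WT-KI, against 196 and 343, and Frem1 in the latter was 0.0115.

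Leaving out each testis gave 86 (without KI-KI replicate 2) to 1164 (without WT-WT replicate 1) genes with an unadjusted p under 0.05 between KI-KI and WT-WT. It gave 163 (without KI-KI replicate 2) to 1145 (without WT-KI replicate 2) between KI-KI and WT-KI, with 187 without KI-KI replicate 3 and 222 without WT-KI replicate 3. It gave 83 (without WT-KI replicate 1) to 244 between WT-KI and WT-WT. Genes following stage numbered 1929 (without WT-WT replicate 1) to 6058 (without WT-KI replicate 1), with 2281 without WT-WT replicate 3, 2538 without WT-KI replicate 3 and 2248 without KI-KI replicate 3. The partners changed sign without ever passing the test. Between KI-KI and WT-WT Frem1 ran from -0.2293 to 0.2434, Frem2 from -0.1398 to 0.3821, Frem3 from -0.33 to 0.5944 and Grip1 from -0.7158 to 1.132. Between KI-KI and WT-KI Frem1 ran from -0.3125 to 0.2253 and Grip1 from -0.2763 to 1.101. Between WT-KI and WT-WT Frem1 ran from -0.1798 to 0.3705 and Grip1 from -1.089 to 0.68. Slopes on stage ran from -0.0202 to 0.0423 for Fras1, from -0.111 to 0.0005 for Frem1 and from -0.1686 to 0.0086 for Frem2. Frem1, Frem2 and Frem3 were below the FPKM minimum of the limma fits, and between genotypes Frem3 had no value with at least 10 counts in every testis, with the size factors of DESeq2, with the block or, for part of the testes, when 1 was left out, since the filter removed it. The causes of these shifts were not tested.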
